A study of Mus musculus with 20 samples.

Results

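Spp1, which encodes osteopontin, and 6 genes of the osteoblast programme (Runx2, Sp7, Alpl, Ibsp, Dlx5 and Dmp1) were followed in C2C12 cells, a mouse myoblast line, in which the lncRNA (long noncoding RNA) Myolinc was depleted with siRNAs. The 7 genes were taken by gene symbol, and all 7 were found among the 20193 gene symbols of the authors' sheets. They were chosen by their knockdown values, since Spp1 and Runx2 were higher with knockdown, so their knockdown values are given as a description, without a test. Tests are given for untransfected cells and for differences among the siRNAs. The choice rested on the rise with knockdown and not on these differences. The siRNA tests nonetheless use the siMyolinc arrays on which the genes were chosen, so their p-values are not from untouched arrays.

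Expression was measured on Affymetrix arrays in 2 sets that the authors normalized separately, and levels were compared only within a set. In the scramble set, cells transfected with siMyolinc.1, siMyolinc.2 or siMyolinc.3 (3 siRNAs against Myolinc, each at 10 nM with the lipid reagent RNAiMax) were set against cells transfected with a scramble siRNA (siScr) in the same way, all after 2 days in differentiation medium with 2% horse serum. Transfection preceded the change of medium by a day. In the time-course set, the same siMyolinc cells at day 2 stood beside untransfected cells, which were kept in growth medium with 20% fetal serum (Undiff) or in differentiation medium for 1 day (Day_1) or 2 days (Day_2). Each group held 2 arrays that the labels call biological replicates, and all cells came from the same line, so the p-values measure the spread between pairs of arrays. The siMyolinc arrays of the 2 sets are the same hybridisations by their values, which leaves 14 distinct arrays among 20 samples. Replicate arrays correlated across genes at 0.996 to 0.999, and genes are not independent replicates. How far each siRNA lowered Myolinc was not analysed here.

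Osteoblasts are the cells that lay down bone. RUNX2 is the transcription factor that commits mesenchymal precursors to this fate, SP7 (osterix) acts downstream of it, and the homeodomain factor DLX5 is induced by bone morphogenetic proteins and acts upstream of both. ALPL is the alkaline phosphatase that frees phosphate for mineral, while osteopontin, IBSP (bone sialoprotein) and DMP1 (dentin matrix protein, made mainly by osteocytes) are acidic, integrin-binding phosphoproteins of mineralised matrix. C2C12 cells normally fuse into myotubes when serum is lowered, and bone morphogenetic protein 2 turns them towards osteoblasts instead. Osteopontin is also made outside bone, including by macrophages and by myoblasts, and is known from injured and regenerating muscle.

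The promoters of Spp1 and Runx2 are shown because these are the genes that were higher with knockdown, and that of Ibsp because it lies in the same run of genes as Spp1 and was not. The sequences are the 250 bases before a transcription start in RefSeq (mouse build GRCm38.p6), written 5′ to 3′ on the strand of the gene, and capitals mark the RUNX-type motif AACCACA. The Spp1 sequence lies at chr5:104434861-104435110 on the plus strand, the Runx2 sequence at chr17:44814628-44814877 on the minus strand, and the Ibsp sequence at chr5:104299037-104299286 on the plus strand.
Spp1: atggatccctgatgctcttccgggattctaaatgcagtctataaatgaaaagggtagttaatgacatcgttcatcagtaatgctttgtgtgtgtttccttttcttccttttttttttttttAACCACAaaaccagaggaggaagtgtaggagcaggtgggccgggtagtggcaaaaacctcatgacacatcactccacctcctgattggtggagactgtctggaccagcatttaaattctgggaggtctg
Runx2: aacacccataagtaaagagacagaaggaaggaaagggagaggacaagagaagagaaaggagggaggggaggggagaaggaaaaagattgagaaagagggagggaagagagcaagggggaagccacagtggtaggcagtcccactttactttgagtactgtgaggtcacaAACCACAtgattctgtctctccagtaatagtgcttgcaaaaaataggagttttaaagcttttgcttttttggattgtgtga
Ibsp: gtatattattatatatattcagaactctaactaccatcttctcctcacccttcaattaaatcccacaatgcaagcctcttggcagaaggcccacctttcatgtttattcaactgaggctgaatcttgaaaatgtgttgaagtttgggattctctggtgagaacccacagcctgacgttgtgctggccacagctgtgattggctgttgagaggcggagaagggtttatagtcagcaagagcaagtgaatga
The motif was searched as AACCACA and, for the other strand, TGTGGTT, in windows that run from 250 bases before to 50 bases after a start. Counted from the start, it lay at -129 to -123 for Spp1 and at -81 to -75 for Runx2. The window of another Spp1 start, at chr5:104435942-104436241, did not hold it. The Runx2 window held it again at 23 to 29 and at 31 to 37, after the start. The windows of 5 of the 7 genes were at hand, 8 windows in all because some genes have several starts, and 3 of the 8 held the motif. The third was a start of Dmp1, with the motif at -165 to -159, while the window of another Dmp1 start did not hold it. Dmp1 lies in the same run as Spp1 and Ibsp and, like Ibsp, was not higher with knockdown (0.03 ± 0.09 log2 against siScr). The motif was thus also found at a gene that was not higher. Of all 32851 promoter windows, 5.27% held the motif on either strand and 0.00913% (3 windows) held it 3 or more times. A match describes letters only and is not a measured binding site.

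Osteopontin RNA was higher with every Myolinc siRNA than with the scramble siRNA at day 2. In the scramble set, the log2 level of Spp1 (transcript cluster 10523717) was 12.46 and 12.39 in siMyolinc.1, 11.34 and 10.93 in siMyolinc.2 and 12.60 and 12.35 in siMyolinc.3, against 10.39 and 10.11 in siScr. All 6 siMyolinc arrays lay above both siScr arrays, with siMyolinc.2 nearest to them. The mean over the siRNAs was 12.01 in siMyolinc and 10.25 in siScr, a difference of 1.76 ± 0.12 log2 (SE), or 3.39-fold. By siRNA, the difference from siScr was 2.17 for siMyolinc.1, 0.89 for siMyolinc.2 and 2.23 for siMyolinc.3, each ± 0.15 (SE, n = 2 arrays a group). In such bulk RNA, more cells that express a gene and more RNA per cell cannot be told apart.

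Against untransfected cells of the same day, the siRNAs differed in direction, and their mean lay close to that of Day_2. In the time-course set, the log2 level of Spp1 was 12.60 and 12.58 in siMyolinc.1, 11.62 and 11.21 in siMyolinc.2 and 12.74 and 12.57 in siMyolinc.3, against 12.34 and 12.28 in Day_2. siMyolinc.1 and siMyolinc.3 lay above both Day_2 arrays and siMyolinc.2 lay below both. The siMyolinc mean differed from Day_2 by -0.10 ± 0.09 log2 (SE), with a 95% interval of -0.30 to 0.11. By siRNA the differences were 0.27 for siMyolinc.1, -0.90 for siMyolinc.2 and 0.34 for siMyolinc.3, each ± 0.11 (SE). siScr and Day_2 arrays occur in different sets, so they were not compared with each other, and both comparisons share the siMyolinc arrays. Day_2 cells were untransfected, so in every comparison of siMyolinc with Day_2 knockdown and transfection cannot be told apart.

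**Figure D1:**
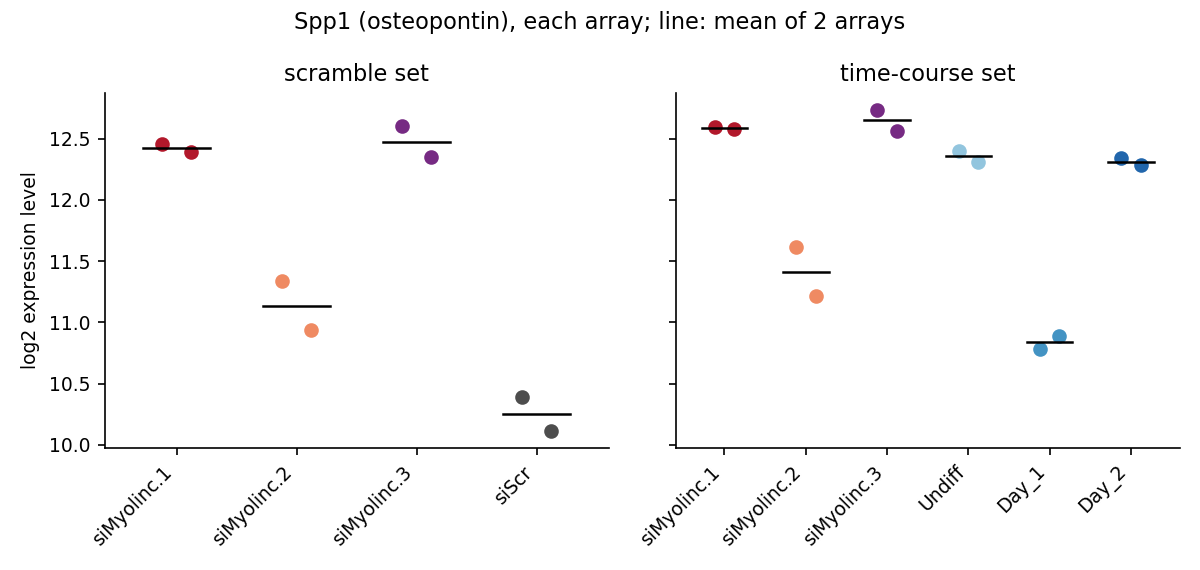
Log2 expression level of Spp1 on each array (points) with the mean of each group of 2 arrays (lines), in the scramble set (left panel) and the time-course set (right panel). All siMyolinc arrays lie above siScr, while in the time-course set siMyolinc.1, siMyolinc.3, Undiff and Day_2 lie between 12.28 and 12.74 and Day_1 lies at 10.78 and 10.89.

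The size of the osteopontin difference depended on the siRNA. Among the 7 genes, Spp1 was the only gene called different among the 3 siRNAs in the scramble set (limma moderated F test, adjusted p = 0.00178), where 4.04% of all genes were called. Spp1 was 1.29 ± 0.15 log2 higher in siMyolinc.1 than in siMyolinc.2 (adjusted p = 0.00155, with 4.75% of all genes called) and 1.34 ± 0.15 higher in siMyolinc.3 than in siMyolinc.2 (adjusted p = 0.00172, with 4.25% called). siMyolinc.3 and siMyolinc.1 differed by 0.05 ± 0.15, with a 95% interval of -0.28 to 0.38 (adjusted p = 0.961). In the values of the same arrays in the time-course set the F test gave an adjusted p of 0.000114 (7.32% of all genes called), which is not a separate observation.

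Muscle markers moved with the same arrays. The mean log2 level over 8 myoblast and muscle markers was 7.51 to 7.52 in siMyolinc.1, 8.26 to 8.28 in siMyolinc.2 and 7.48 to 7.54 in siMyolinc.3, against 8.70 to 8.75 in siScr. siMyolinc.2 was again nearest to siScr. Of the 8 markers, 6 were called lower in siMyolinc than in siScr and none higher (75% called, beside 9.09% of all genes), among them Actc1 (cardiac alpha-actin, -1.70 ± 0.07) and Myl1 (a fast myosin light chain, -1.55 ± 0.10). Against the untransfected Day_2 cells the difference was larger for both, at -3.45 ± 0.07 for Actc1 and -4.15 ± 0.07 for Myl1. In that comparison 6 of the 8 markers were called lower and 1 higher (87.5% called, beside 38.1% of all genes). The higher marker was Myf5, with means of 10.62 to 10.86 in the siMyolinc groups against 9.72 in Day_2. There, knockdown and transfection cannot be told apart. The muscle markers were chosen with earlier results of these data known. Their part in the Spp1 result was not tested.

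In untransfected cells, Spp1 fell at day 1 and was back at its starting level at day 2. The log2 level was 12.40 and 12.31 in Undiff, 10.78 and 10.89 in Day_1, and 12.34 and 12.28 in Day_2. Both Day_1 arrays lay below all others of the time course, whereas the Day_2 and Undiff arrays overlapped. Relative to Undiff, Spp1 in Day_1 fell by 1.52 (± 0.11) log2, or 2.87-fold (limma, adjusted p = 9.04e-07), and Day_2 was 1.48 ± 0.11 log2 higher than Day_1, 2.78-fold (adjusted p = 1.56e-06). Relative to the median of all genes, which itself shifted by 0.11 and -0.12 log2 in these comparisons, the changes were -1.63 and 1.60. Day_2 differed from Undiff by -0.04 ± 0.11, with a 95% interval of -0.29 to 0.21 (adjusted p = 0.845).

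Ordered by mean level in the time-course set, Spp1 ran from siMyolinc.3 (12.65) and siMyolinc.1 (12.59) through Undiff (12.36) and Day_2 (12.31) to siMyolinc.2 (11.41) and Day_1 (10.84). The arrays of siMyolinc.3 and siMyolinc.1 overlapped, as did those of Undiff and Day_2. The arrays of the other neighbours in this order did not overlap. The siMyolinc mean was 1.38 ± 0.09 above Day_1 and -0.14 ± 0.09 from Undiff.

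Runx2 was represented by different transcript clusters in the authors' sheets, 10451061 for the scramble set and 10445357 for the time-course set. The sheets differ in this way for 706 gene symbols. Both clusters were therefore read in both sets, from the deposited value tables that hold all clusters. For 10451061 in the scramble set, the log2 level was 9.56 and 9.59 in siMyolinc.1, 9.29 and 9.34 in siMyolinc.2 and 9.78 and 9.51 in siMyolinc.3, against 9.09 and 9.26 in siScr. All 6 knockdown arrays lay above both siScr arrays, though siMyolinc.2 did so by little. The siMyolinc mean was 9.51 and the siScr mean 9.17, a difference of 0.34 ± 0.08 log2 (SE), or 1.26-fold, and cluster 10445357 gave 0.30 ± 0.07. Spp1 and Runx2 were the 2 of the 7 genes whose siMyolinc arrays did not overlap siScr, and they were chosen because they rose with knockdown. The share of all genes without such overlap was not counted, so nothing about the 7 genes as a group is read from this count. By adjusted p, another measure, this comparison called 9.09% of all genes.

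Against untransfected Day_2 cells, the direction for Runx2 depended on the cluster. For 10445357, the cluster of the time-course sheet, the log2 level was 7.61 and 7.63 in siMyolinc.1, 7.26 and 7.40 in siMyolinc.2 and 7.59 and 7.77 in siMyolinc.3, against 7.48 and 7.54 in Day_2. The arrays overlapped, and the mean difference was 0.03 ± 0.07 (SE). For 10451061 in the same set, the level was 9.75 to 10.21 over the siMyolinc arrays, against 10.25 and 10.32 in Day_2. Here all knockdown arrays lay below Day_2, with a mean difference of -0.34 ± 0.06. The clusters are different probe groups, so their levels were not set against each other.

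Differences of Runx2 among the siRNAs were not called. The F test gave an adjusted p of 0.189 for cluster 10451061 and 0.164 for 10445357. The largest contrast, siMyolinc.3 against siMyolinc.2, was 0.33 ± 0.10 with a 95% interval of 0.11 to 0.56 before adjustment over genes (adjusted p = 0.11). As for Spp1, siMyolinc.2 had the lowest mean of the 3 siRNAs in both clusters and both sets.

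**Figure D2:**
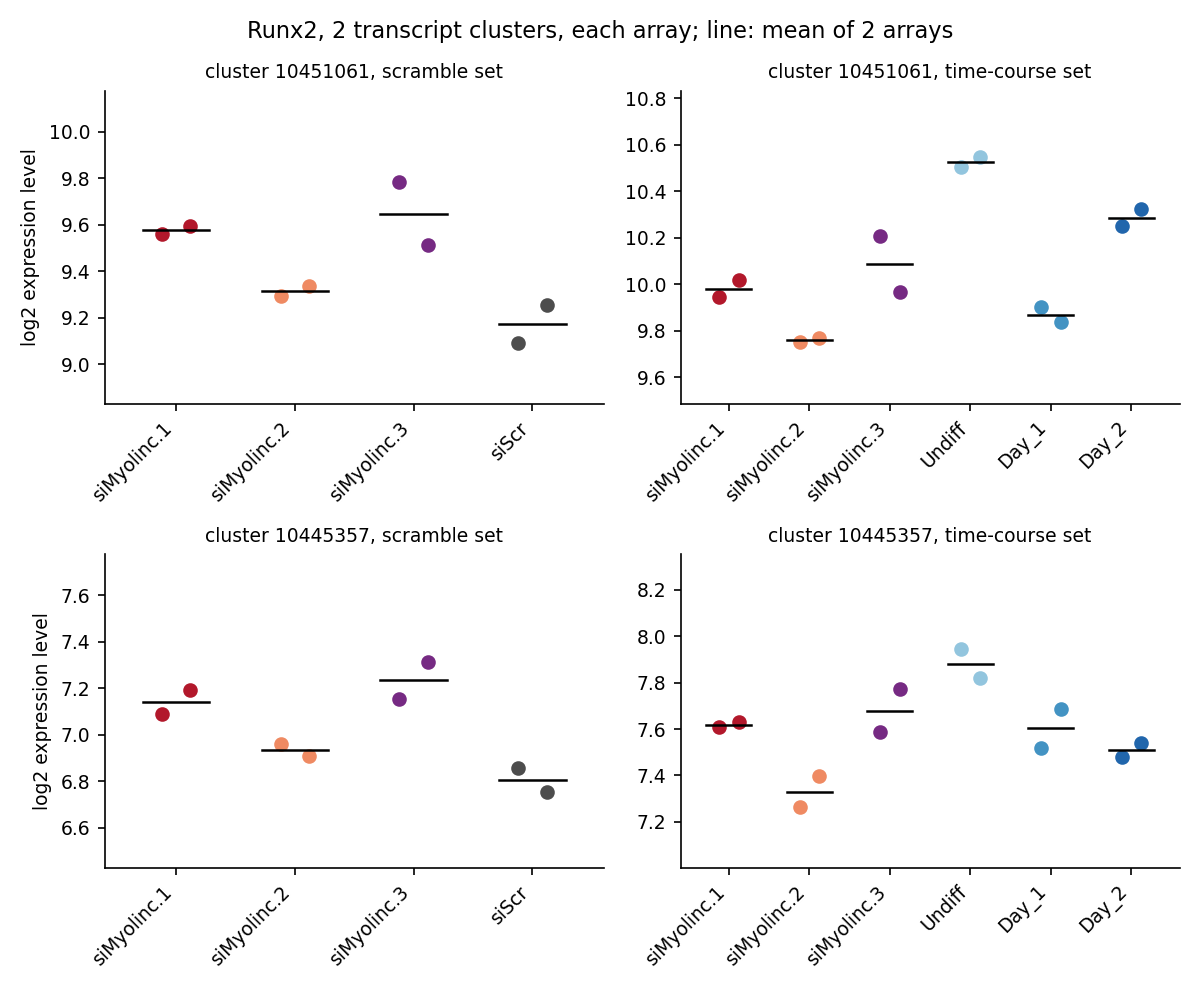
Log2 expression level of the 2 Runx2 transcript clusters (rows) on each array (points) with group means (lines), in the scramble set (left) and the time-course set (right). Each panel has its own axis range; the siMyolinc arrays lie above siScr in both clusters, and all of them lie below Day_2 in cluster 10451061 but not in cluster 10445357.

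During untransfected differentiation, Runx2 fell by day 1 in both clusters. For 10445357, the level was 7.94 and 7.82 in Undiff, 7.52 and 7.69 in Day_1, and 7.48 and 7.54 in Day_2. Undiff was highest, and Day_1 and Day_2 overlapped. Day_1 differed from Undiff by -0.28 ± 0.09 (limma, adjusted p = 0.0205) and Day_2 from Undiff by -0.37 ± 0.09 (adjusted p = 0.00582), while Day_2 against Day_1 was -0.09 ± 0.09 (adjusted p = 0.361). The call for Day_1 rests on single arrays: its adjusted p was 0.151 without the first Undiff array and 0.135 without the first Day_1 array. Centring the arrays on their 75th percentile gave -0.13 (adjusted p = 0.188). The call for Day_2 against Undiff likewise had an adjusted p of 0.0568 without the first Undiff array.

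Cluster 10451061 showed a larger fall and a partial return. The level was 10.50 and 10.55 in Undiff, 9.90 and 9.84 in Day_1, and 10.25 and 10.32 in Day_2, with no overlap between days. Day_1 was -0.66 ± 0.08 from Undiff (adjusted p = 4.46e-05), Day_2 was 0.42 ± 0.08 from Day_1 (adjusted p = 0.00137) and Day_2 was -0.24 ± 0.08 from Undiff (adjusted p = 0.0399). In this cluster the day order of Runx2 resembled that of Spp1, lowest at day 1, which was not so in the other cluster. This reading of the second cluster was added after the data had been seen.

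The other 5 genes, Sp7, Dlx5, Alpl, Ibsp and Dmp1, were dim and did not separate siMyolinc from siScr. In every group their mean lay below the median level of all genes of the set, 7.08 in the scramble set and 7.63 in the time-course set, so that a filter on dim genes passed 2 of the 7 genes in each set. The difference between the siMyolinc mean and siScr was 0.03 ± 0.07 log2 for Sp7, 0.02 ± 0.09 for Dlx5, 0.02 ± 0.06 for Alpl, 0.07 ± 0.09 for Ibsp and 0.03 ± 0.09 for Dmp1, and the arrays overlapped in all 5. These are small next to 1.76 for Spp1, and the widest 95% interval, that of Ibsp, ran from -0.14 to 0.28. For Alpl, the usual readout of osteoblast conversion, the log2 level was 7.001 and 6.902 in siMyolinc.1, 6.986 and 7.003 in siMyolinc.2 and 6.968 and 6.859 in siMyolinc.3, against 6.897 and 6.968 in siScr. At such levels a low expression and the background of the array could not be told apart.

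Against Day_2, Alpl and Ibsp were slightly higher in all 6 siMyolinc arrays. The share of all genes for which this holds was not counted. The mean difference was 0.20 ± 0.07 log2 for Alpl and 0.21 ± 0.10 for Ibsp, while Sp7 (0.07), Dlx5 (0.04) and Dmp1 (0.09) overlapped with Day_2. This comparison called 38.1% of all genes, and the median change of the 9152 dim genes in it was 0.07, with 73.8% of them above 0.

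**Figure D3:**
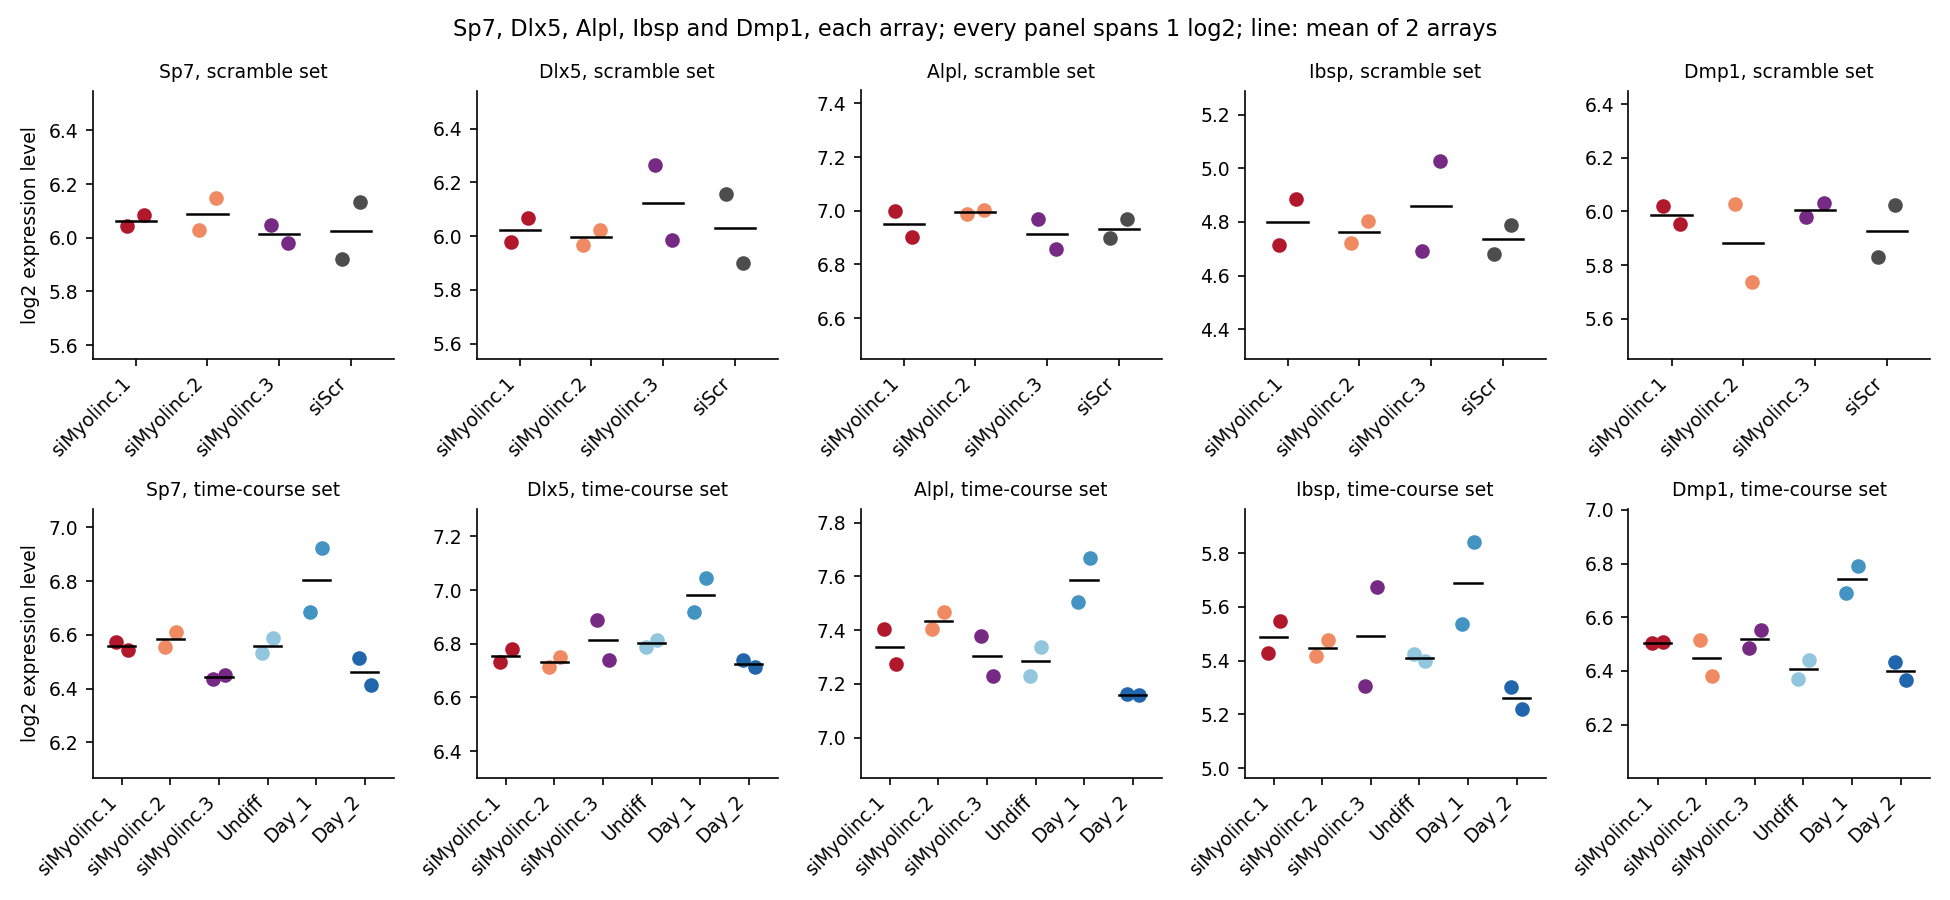
Log2 expression level of Sp7, Dlx5, Alpl, Ibsp and Dmp1 on each array (points) with group means (lines), in the scramble set (upper row) and the time-course set (lower row). Every panel spans 1 log2; siMyolinc and siScr overlap in the upper row, and Day_1 is highest in the lower row.

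In the untransfected time course, these 5 genes were highest at day 1. The log2 level of Dmp1 was 6.37 and 6.44 in Undiff, 6.69 and 6.79 in Day_1, and 6.43 and 6.37 in Day_2. Both Day_1 arrays lay above all other untransfected arrays. Day_1 exceeded Undiff by 0.34 ± 0.07 for Dmp1 (limma, adjusted p = 0.00209), 0.30 ± 0.08 for Alpl (adjusted p = 0.0103) and 0.24 ± 0.08 for Sp7 (adjusted p = 0.0251). Ibsp (0.28 ± 0.12, adjusted p = 0.0749) and Dlx5 (0.18 ± 0.07, adjusted p = 0.0519) were not called. Day_2 against Day_1 was called lower for all 5, at -0.25 for Dlx5 to -0.43 for Alpl and Ibsp, and Day_2 against Undiff was called for none of them. Several of these calls rest on single arrays. The Day_1 calls had an adjusted p of 0.132 (Sp7) and 0.0867 (Alpl) without the first Undiff array, and of 0.227 (Sp7) and 0.0952 (Alpl) without the second Day_1 array, while that of Sp7 was 0.066 in a fit of the compared arrays alone. For Day_2 against Day_1 the adjusted p was 0.123 (Ibsp) and 0.0878 (Dlx5) without the second Day_1 array, and 0.0752 (Ibsp) and 0.061 (Dlx5) without the second Day_2 array.

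The same day 1 pattern was found over dim genes as a whole. Of all 9152 genes below the set median in every group, 86.7% had a positive Day_1 against Undiff change, with a median of 0.16, and the median of Day_2 against Day_1 was -0.20. The share of these dim genes with a larger Day_1 change was 7.79% for Dmp1, 12.6% for Alpl, 16.9% for Ibsp, 25.2% for Sp7 and 45.2% for Dlx5. After another round of quantile normalization, the Day_1 call was lost for Sp7 (0.08, adjusted p = 0.407), and for Day_2 against Day_1 those of Sp7, Ibsp, Dlx5 and Dmp1 were lost. The part of this general shift in the calls of the 5 genes was not tested further.

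Counted over the 7 genes, Day_1 against Undiff called 5 (3 higher, 2 lower), where 48.1% of all genes were called, 27% higher and 21.1% lower. Day_2 against Day_1 called 6 (1 higher, 5 lower), with 53.6% of all genes called, 21.1% higher and 32.4% lower. Day_2 against Undiff called 1, Runx2, which was lower, with 29.9% of all genes called and 15.2% lower. The median change of the 7 was 0.24, -0.34 and -0.10 in these comparisons, beside 0.11, -0.12 and -0.03 over all genes.

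**Figure D4:**
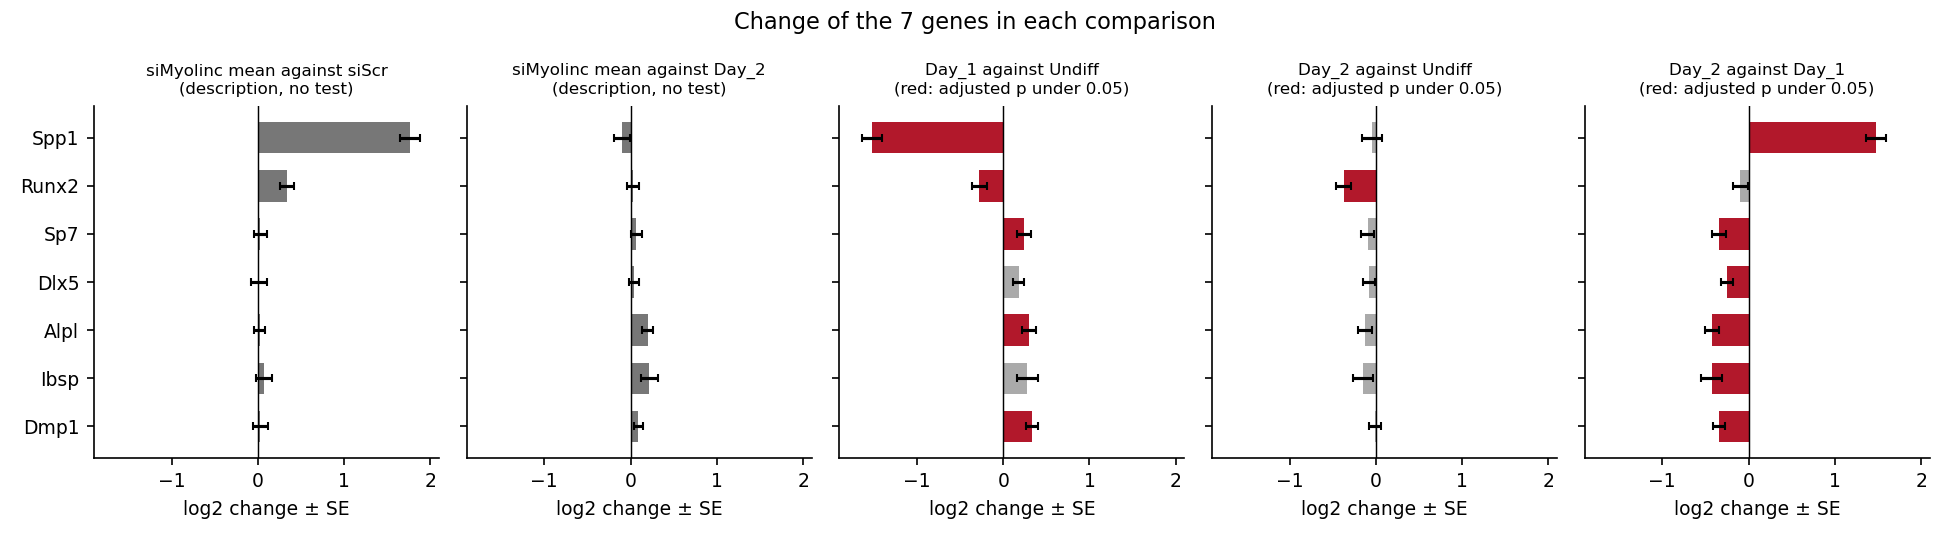
Log2 change (bars) with its standard error (lines) for the 7 genes in 5 comparisons; red bars have an adjusted p under 0.05, and the grey bars of the siMyolinc panels were not tested. Spp1 is at 1.76 for siMyolinc against siScr, at -0.10 against Day_2 and at -1.52 for Day_1 against Undiff, while the other 6 genes stay within 0.43 of 0.

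Spp1 lies in a run of genes for related matrix proteins on mouse chromosome 5, in the order Sparcl1, Dspp, Dmp1, Ibsp, Mepe, Spp1 and, next to it, Pkd2, the gene of the polycystin-2 channel. Over the 8 arrays of the scramble set, Spp1 spanned 2.49 log2 from lowest to highest, and the spans of the other 6 were 0.17 for Mepe to 0.48 for Sparcl1. Over the 12 arrays of the time-course set, the span was 1.96 for Spp1 and 0.17 to 0.62 for the others, with Ibsp at the upper end. The large spans were thus on Spp1 alone among these neighbours. However, Sparcl1, Dspp, Dmp1, Ibsp and Mepe lay below the set median (7.08 and 7.63) on all arrays. Their highest levels were 6.41 in the scramble set and 6.79 in the time-course set, where background could also keep a span small. Pkd2 lay above the median, at 8.89 to 9.29 and 9.16 to 9.60, with spans of 0.40 and 0.44. Dspp (dentin sialophosphoprotein) and Mepe were called in none of 5 comparisons (limma), nor below an unadjusted p of 0.05 in any.

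Other genes of bone were taken from 8 lists with 78 measured members: transcription regulators, matrix and mineralisation genes, osteocyte genes, osteopontin receptors, enzymes that cleave osteopontin, bone morphogenetic protein (BMP) signalling, RUNX2 targets, and the phosphoglycoproteins Dspp and Mepe. The lists were chosen with earlier results of these data known. Their shares of called genes, here and below, are thus descriptions and not tests of a list. In siMyolinc against siScr, 4 were called higher, 12 lower and 62 were not called, or 20.5% beside 9.09% of all genes, with a median change of -0.01. The matrix list held most of the falls, with 7 of 13 lower and none higher, and a median of -0.25. Both chains of type I collagen, the main protein of bone matrix and also a product of fibroblasts, fell: Col1a1 by 0.95 (± 0.07) and Col1a2 by 0.94 (± 0.06). The phosphate transporter Slc20a1 fell by 0.45 and Ank, which exports pyrophosphate, by 0.43. Among 16 transcription regulators, such as Twist1 and Msx2, none was called by limma, and 4 had an unadjusted p under 0.05.

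Of 7 measured RUNX2 targets, 2 were called higher in siMyolinc than in siScr and none lower (28.6% called, beside 9.09% of all genes), with a median of 0.06. In untransfected cells, 6 were called higher and 0 lower in Day_1 against Undiff (85.7%, beside 48.1% of all genes), with a median of 0.34. Runx2 itself fell there in both clusters. In Day_2 against Day_1, 0 were higher and 6 lower (85.7%, beside 53.6%), with a median of -0.34. Mmp13, a collagenase of osteoblasts and hypertrophic chondrocytes, was 2.12 ± 0.13 log2 higher in siMyolinc than in siScr (limma, adjusted p = 4.02e-05), and Fgfr1, a fibroblast growth factor receptor, 0.46 ± 0.07 higher. Of 18 BMP signalling genes, 1 was higher and 1 lower (11.1% called), a share close to the 9.09% of all genes. Grem1, a secreted BMP antagonist, was 0.88 ± 0.07 higher (adjusted p = 0.000145), and Bmp4, a ligand, was lower (-0.61 ± 0.06, adjusted p = 0.000364). Of 4 osteocyte genes, Pdpn, a membrane glycoprotein of early osteocytes, was 0.72 ± 0.07 higher and the others were not called. Of 10 receptor genes for osteopontin, the integrin subunits Itgb5 (-0.39) and Itgav (-0.35) were lower and 8 were not called, among them Cd44 (-0.03). Of 8 cleaving enzymes, Plau (urokinase, -0.66) and Mmp2 (-0.50) were lower. The shares called were 25% of the osteocyte genes, 20% of the receptor genes and 25% of the cleaving enzymes, beside 9.09% of all genes.

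Set against Day_2, the same siMyolinc arrays gave 14 higher and 28 lower of the 78 bone genes, or 53.8% beside 38.1% of all genes. Mmp13 (2.71 ± 0.13) and Grem1 (2.39 ± 0.06) were again higher, and Col1a1 (-1.62 ± 0.07), Plau (-2.01 ± 0.06) and Mmp2 (-1.63 ± 0.06) again lower. Slc20a1 and Pdpn had opposite signs in the 2 comparisons. Against Day_2, Slc20a1 was at 1.20 ± 0.05 and Pdpn at -0.39 ± 0.05. Cd44, the hyaluronan receptor that also binds osteopontin, was at -1.42 ± 0.06 against Day_2 while Spp1 was at -0.10. The comparisons share the siMyolinc arrays, and that with Day_2 sets transfected against untransfected cells.

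**Figure D5:**
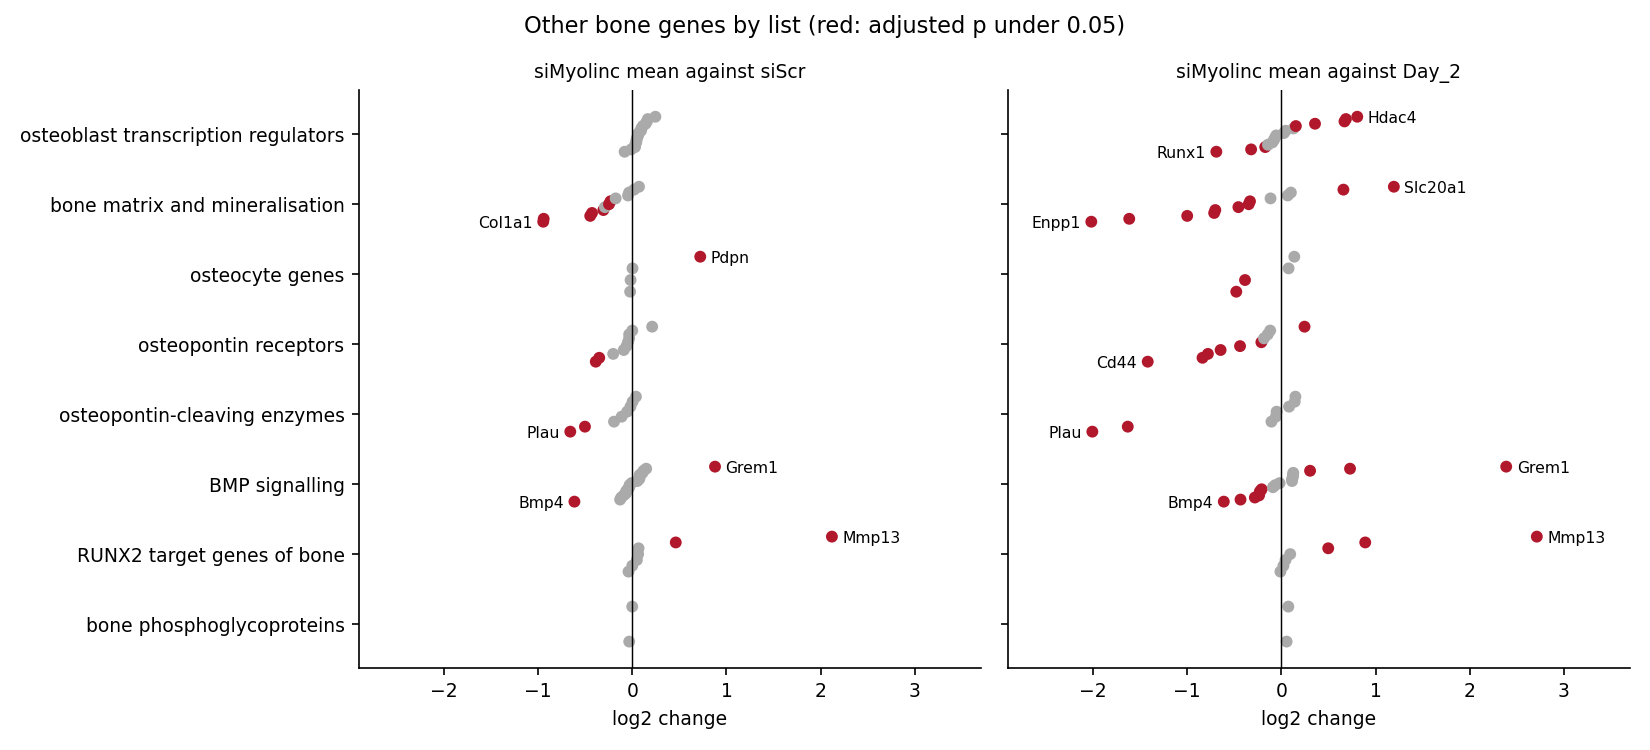
Log2 change of each measured gene (points) of 8 bone lists, for siMyolinc against siScr (left) and against Day_2 (right); red points have an adjusted p under 0.05, and the largest called change each way in a list is labelled where it is over 0.6. The matrix list lies mostly below 0, and Mmp13 and Grem1 lie highest in both panels.

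Several receptor genes for osteopontin were also lowest at day 1 in untransfected cells. In Day_1 against Undiff, 5 of 10 were lower and 2 higher, where 21.1% of all genes were lower and 27% higher, with a median of -0.23 beside 0.11 over all genes. Integrin beta-3 (Itgb3) changed by -1.57 ± 0.11, Cd44 by -1.25 ± 0.08 and integrin alpha-V (Itgav) by -0.58 ± 0.06. In Day_2 against Day_1, 6 of 10 were higher and 1 lower, where 21.1% of all genes were higher and 32.4% lower. The median was 0.32 beside -0.12, and Cd44 (1.42 ± 0.08), Itgb3 (1.11 ± 0.11) and Itgav (0.74 ± 0.06) were among the higher. Plau changed by -1.84 ± 0.08 and 2.26 ± 0.08 in these comparisons. The comparisons share the Day_1 arrays, so a low at day 1 enters both.

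Macrophage and osteoclast markers were mostly dim, whereas 0 of the 8 myoblast and muscle markers lay below the set median in every group. Of 9 macrophage markers, 7 lay below the set median in every group, including Lyz2 (lysozyme), with means of 4.95 to 5.16 in siMyolinc against 5.08 in siScr, and the receptor gene Csf1r. Cd68 (0.51 ± 0.08) and Cd14 (0.43 ± 0.09) were called higher in siMyolinc than in siScr and the other 7 were not called. This is 22.2% of the 9 markers, where 9.09% of all genes were called. The mean over the 9 was 5.96 to 6.05 in the siMyolinc arrays, against 5.89 to 5.91 in siScr. All 5 osteoclast markers lay below the set median in the scramble set and none was called there by limma (1 at an unadjusted p under 0.05). None of 5 adipocyte and 5 chondrocyte markers was called in that comparison either (0 at an unadjusted p under 0.05). Against Day_2, where 38.1% of all genes were called, 3 of 9 macrophage markers were higher in siMyolinc, Cd14 (0.60 ± 0.07), Itgam (0.29 ± 0.06) and Cd68 (0.19 ± 0.06), while Spp1 was at -0.10. Of the adipocyte markers 3 of 5 were higher, led by Pparg (0.54 ± 0.05), of the osteoclast markers 1, Ctsk (0.26 ± 0.09), and of the chondrocyte markers none, with 1 lower. The part of Cd68 and Cd14 in the Spp1 result was not tested.

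Genes whose group means ran most like Spp1 were sought among genes with a span of at least 1 log2. Over the 4 groups of the scramble set, the 5 nearest of 200 were Mbnl3 (Pearson r = 0.9999), Fgf7 (0.9996), Mmp13 (0.9994), Fam78b (0.9993) and Tm4sf1 (0.9987). Over the 6 groups of the time-course set, the 5 nearest of 2015 were Zfp52 (0.974), Etv4 (0.9486), Parvb (0.9295), Glis3 (0.9294) and Angptl4 (0.9235), so no gene was among the nearest in both sets. For Runx2 they were Egln3, Col8a1, Mir221, Tnfrsf23 and Tm4sf1 in the scramble set (0.9941 to 0.9989) and Rgs20, Fetub, Fxyd5, Ephb2 and Nav3 in the time-course set (0.8478 to 0.9092). With so few groups that share arrays and normalization, high values are easily reached, and the likeness is given as a description.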

How the data were processed

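Biotin-labelled cRNA from Trizol-extracted total RNA was hybridised to Affymetrix arrays, per the labels' protocols. The authors deposited log2 expression values per transcript cluster, made with RMA, per the submitters' processing notes, which also name limma. The sources used here give no array annotation, genome build or tool version. The authors' sheets hold 1 cluster per gene symbol (20193 symbols), with their own unadjusted p-values per the file headers, which were not used. The authors deposited 1 siMyolinc.3 column of the time-course sheet as RMA values in which 23 cells had become spreadsheet day numbers, so its unit was recorded as a score and those cells were treated as missing.

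Groups were compared with limma 3.58.1 (R 4.3.3), with 1 coefficient per group over all arrays of a set and two-sided p-values adjusted by Benjamini-Hochberg over all genes of the sheet; a gene was called under 0.05. All adjusted p-values are from these fits, ± is the standard error unless an SD is named, and the siMyolinc mean weights the 3 siRNAs equally. That the siMyolinc arrays occur in both sets was read from their deviations, which correlated at 0.933 to 0.949 for the same label and at most 0.289 otherwise, over 35532 clusters. Array precision is limited by the number of arrays: the median standard error of a change was 0.0710 for the siMyolinc mean minus siScr and 0.0801 for Day_1 minus Undiff. Dim genes are those with every group mean below the median level of the set.

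The 7 genes and the 13 gene lists (8 of bone, 5 of markers) were chosen with earlier results of these data known. Of each list the text names up to 4 called genes with the largest absolute change in siMyolinc against siScr, Day_1 against Undiff and Day_2 against Undiff, and follows those genes into the other comparisons; the 5 genes most like Spp1 and Runx2 and the dimmest markers are also named, and Dspp, Mepe, Twist1, Msx2 and the chromosome neighbours were named after their values were seen. Bglap2, Phospho1 and Chrd were not matched, and 4 genes were found under older symbols. Promoters came from RefSeq tables, which matched 5 of the 7 genes. The fits were tested on simulated data. Of changes of 0.25 log2, 8.96% were called for siMyolinc against siScr and 5.97% for Day_1 against Undiff. For changes of 0.5 log2 the share was 64.2% in both, and for 1 log2 it was 97%. The F test among siRNAs called 63% at 0.5 log2 and 93% at 1 log2. A small change that was not called is thus not shown to be absent. Alternatives were normalization, a filter on dim genes, the variance model, array weights, the arrays in the fit, the replicate number as a block, the source table, each array left out in turn and, added after seeing the data, the other Runx2 cluster.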

Additional observations from a re-analysis of the deposited data

Results flagged for a closer look

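The effect of the Myolinc siRNAs on Spp1 differed among the siRNAs (limma moderated F test, adjusted p = 0.00178), with siMyolinc.2 1.29 log2 below siMyolinc.1 and 1.34 below siMyolinc.3. The test used the siMyolinc arrays on which Spp1 was chosen. All 6 siMyolinc arrays were above siScr, so the difference is one of size and not of direction. Against Day_2 the signs differed: 0.27 for siMyolinc.1, -0.90 for siMyolinc.2 and 0.34 for siMyolinc.3. The depth of the knockdown by each siRNA was not analysed here.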

How the results depend on the processing

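Spp1 kept its direction in every alternative run for siMyolinc against siScr (1.62 to 1.90 log2) and Day_2 (-0.16 to -0.03), and its calls for Day_1 against Undiff, Day_2 against Day_1 and the siRNAs. Its uncalled Day_2 against Undiff change turned to 0.001312 without the first Undiff array, in a range of -0.08833 to 0.001312 over arrays left out. With the other cluster, Runx2 turned to -0.3449 for siMyolinc against Day_2 and to 0.4174 for Day_2 against Day_1. The uncalled Dmp1 change of Day_2 against Undiff turned to 0.01016 with 75th percentile centring, 0.01842 with quantile normalization, 0.02802 without Undiff replicate 2 and 0.0268 without Day_2 replicate 2, in a range of -0.03992 to 0.02802. Of the 7 genes, Day_2 against Day_1 called 2 after quantile normalization and 1 without dim genes, and Day_1 against Undiff called 2 without dim genes, which leaves out 5 of the 7. With an array left out, the number called was 2 to 7 for Day_1 against Undiff, 0 to 1 for Day_2 against Undiff and 4 to 6 for Day_2 against Day_1; without the first Undiff array it was 2 and 0 for the comparisons with Undiff, and without the second Day_1 array 3 for Day_1 against Undiff. Causes were not tested except where fewer genes or arrays entered. Counts of called list genes stayed within 1.5 times.

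Replicate numbers did not pair the arrays: deviations of same-numbered arrays correlated at -0.11 to 0.22 over 6 pairs of groups and at -0.17 to 0.24 over 15. With the number as a replicate block, Spp1 stayed at 1.76 and Runx2 at 0.34 against siScr, and 5, 1 and 6 of the 7 genes were called in the time course, as without it; no call of the 7 genes changed with the block. The number of arrays, 2 a group, limits what small changes can be called.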

Other observations

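BMP signalling genes moved during untransfected differentiation. Bmp4 was 2.50 ± 0.07 log2 higher in Day_2 than in Undiff (limma, adjusted p = 1.89e-09), and Grem1 changed by -1.08 ± 0.08 and Id1, an early BMP target, by -0.82 ± 0.09. At day 1, Id1 was at -1.36 ± 0.09 from Undiff and Bmpr1b, a BMP receptor, at 0.86 ± 0.09. In siMyolinc against Day_2, Grem1 was higher and Bmp4 lower, the reverse of their change over the 2 days; both comparisons use the Day_2 arrays. Of the 18 measured genes of the list, 4 were higher and 5 lower in Day_2 against Undiff (50% called, beside 29.9% of all genes), with a median of -0.02.

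Of the 13 measured bone matrix and mineralisation genes, 5 were higher and 3 lower in Day_2 against Undiff (61.5% called, beside 29.9% of all genes), with a median of 0.0043. Mgp, matrix Gla protein, was 2.68 ± 0.08 log2 higher in Day_2 than in Undiff, and Enpp1, which makes pyrophosphate, 1.20 ± 0.10 higher. Enpp1 was -2.02 ± 0.08 in siMyolinc against Day_2, where knockdown and transfection cannot be told apart, and -0.25 ± 0.06 against siScr. Twist2, a repressor of RUNX2 activity, was -1.13 ± 0.06 at Day_1 and -1.42 ± 0.06 at Day_2 against Undiff, while 6 of 16 transcription regulators were lower and 2 higher in Day_2 against Undiff (50% called, where 29.9% of all genes were called and 15.2% were lower).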
